A study of Arabidopsis thaliana with 6 samples.

Results

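Pectin-modifying enzymes and their inhibitors were followed in the transcriptome of whole *Arabidopsis thaliana* Col-0 (wild-type) seedlings. The members are the 107 genes, of 19616 in the deposited count table, whose short TAIR description contains "pectin" or "pectate lyase". In the deposited table these short descriptions stand under the header of the gene type, because the headers are shifted against the columns, while the column headed as the short description holds curator summaries. The same words match 17 rows under that header, 6 of which are members, and the other 11 are described near the end. In the RefSeq annotation of TAIR10.1, 252 loci have such words in their product name, and 142 of them are not in the table, so they were not analysed here.

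RNA-Seq libraries were compared from 3 samples of seedlings treated with the bacterium *Priestia megaterium* YC4-R4, resuspended in 0.45% NaCl, and 3 samples of mock-inoculated seedlings, which received the same carrier without bacteria. All plants were germinated on agar plates, moved to a soil mixture, inoculated 24 h later, and collected 7 days after treatment, at the labelled age of 13 days after germination. Whole plants were ground, so each value averages over roots, leaves and all their cell types. Total counts were 21904205, 15292377 and 20756449 in the treated libraries, against 10804936, 12263720 and 20040520 in the mock libraries.

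Pectin is the gel-like polysaccharide of the primary cell wall and of the layer that glues neighbouring cells together. Its main chain, homogalacturonan, is made in the Golgi and exported with methyl and acetyl groups on it. In the wall, pectin methylesterases (PMEs) remove the methyl groups and acetylesterases (PAEs) the acetyl groups, while small inhibitor proteins (PMEIs) bind and block methylesterases. Demethylated chains can be cross-linked by calcium, which stiffens the wall, or be cut by polygalacturonases and pectate lyases, which loosens it. Many methylesterases are made with an inhibitor-like domain in front of the enzyme, which is removed before the enzyme acts. In roots and shoots these enzymes are known for their part in cell growth, cell separation and the response to microbes.

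By the protein domains that the deposited descriptions name, the members were 25 methylesterases with an inhibitor domain, 5 methylesterases without it, 21 proteins of the inhibitor domain alone, 27 polygalacturonases, 16 pectate lyases and 11 acetylesterases. For 2 members, QRT3 and its neighbour AT4G20040, none of these domains was named. The 21 are called inhibitors below by their domain alone, and what each of them inhibits was not tested. The roles also differed in gene structure in the RefSeq annotation. The coding sequences of the inhibitors had a median of 206 codons (184 to 313), mostly in 1 exon, whereas methylesterases with an inhibitor domain had a median of 569 codons (498 to 644), mostly in 2 exons, and acetylesterases a median of 428 codons in 12 exons.

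Treatment moved few of these genes. Past an adjusted p of 0.05 and a fold change of 1.5, 5 members (4.67%) were higher in treated seedlings and 0 were lower, where over all 19615 genes tested 1.73% were higher and 1.54% were lower (edgeR quasi-likelihood test, Benjamini-Hochberg adjustment over all genes). Without a limit on the fold, 9 members were higher and 5 were lower, against 1001 and 887 of all 19615 genes. The same count of 0 lower members at both limits came from DESeq2, limma-voom and edgeR's likelihood ratio test. At an unadjusted p under 0.05 (edgeR quasi-likelihood test), 15 members were higher and 12 lower, against 2369 and 2202 of all genes. The 5 that rose were 2 methylesterases with an inhibitor domain (PME17 and AT5G04960), 1 inhibitor (AT1G23205) and 2 polygalacturonases (AT1G60590 and AT5G14650). Across the members the median log2 fold change (treated over mock) was 0.011, against -0.005 over all genes, with 57 members above 0 and 50 below.

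The 250 bases before the annotated start of the 2 risen methylesterases and of the risen inhibitor are printed here, to show the sequence next to which these rises were measured. They were read 5′ to 3′ on the gene's strand from TAIR10.1, the RefSeq release of the TAIR10 build used by the authors. PME17 lies on the minus strand of chromosome 2 (chr2:18644061-18646606, window chr2:18646607-18646856). AT1G23205 lies on the minus strand of chromosome 1 (chr1:8233953-8235019, window chr1:8235020-8235269), and AT5G04960 on the plus strand of chromosome 5 (chr5:1461786-1464066, window chr5:1461536-1461785). Capitals mark a W-box, the letters TTGACC or TTGACT on either strand, which WRKY factors are known to bind.
PME17: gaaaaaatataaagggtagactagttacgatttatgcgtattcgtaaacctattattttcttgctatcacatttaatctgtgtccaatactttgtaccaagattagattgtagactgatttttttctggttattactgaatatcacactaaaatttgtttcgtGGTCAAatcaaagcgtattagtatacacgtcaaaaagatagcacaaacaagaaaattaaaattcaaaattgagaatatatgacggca
AT1G23205: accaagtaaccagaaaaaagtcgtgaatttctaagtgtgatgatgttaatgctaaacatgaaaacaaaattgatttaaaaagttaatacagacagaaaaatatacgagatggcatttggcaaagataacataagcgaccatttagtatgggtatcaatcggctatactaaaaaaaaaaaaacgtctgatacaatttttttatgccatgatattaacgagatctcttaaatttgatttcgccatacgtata
AT5G04960: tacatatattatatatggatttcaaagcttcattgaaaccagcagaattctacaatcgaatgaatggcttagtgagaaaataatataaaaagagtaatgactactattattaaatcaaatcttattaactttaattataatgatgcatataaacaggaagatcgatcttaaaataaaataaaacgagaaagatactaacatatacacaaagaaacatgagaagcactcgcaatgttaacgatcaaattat

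The W-box stood at -87 in the window of PME17, and the windows of the other 4 risen members held none. Of the windows of all members, 21 of 107 (19.6%) held a W-box, as did 28.5% of the 19536 windows of the genes in the table. A G-box (CACGTG), which bHLH and bZIP factors are known to bind, stood in 5 member windows (4.67%) and in 7.26% of all windows. The window of none of the 5 risen members held a G-box. Neither motif contains the other, and a match describes letters only.

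PME17 is a methylesterase with an inhibitor domain, known in roots as a substrate of the subtilase SBT3.5. Its levels were 40.5, 44.1 and 44.1 CPM (counts scaled to library size, with TMM factors) in the treated libraries, against 23.0, 26.0 and 25.7 CPM in the mock libraries. The groups did not overlap, and the lowest treated library stood well above the highest mock library. The log2 fold change was 0.78 ± 0.08 (SE, n = 3 libraries per group), with an adjusted p of 9.8e-05 in edgeR's quasi-likelihood test with Benjamini-Hochberg adjustment, the smallest p among the members. The subtilase SBT3.5 itself had 26.4, 22.3 and 26.1 CPM in treated seedlings against 16.4, 20.0 and 23.1 CPM in mock seedlings. These overlapped, with a log2 fold change of 0.31 and an adjusted p of 0.129 in the same edgeR test.

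AT5G04960 had the highest fold change of all members but a low level. It is a methylesterase with an inhibitor domain, and the deposited text gives root hair specific 12 as its closest Arabidopsis relative. Its levels were 4.26, 3.85 and 5.36 CPM in treated seedlings, against 1.55, 2.14 and 2.00 CPM in mock seedlings. These values rest on 94, 60 and 108 counts in the treated libraries and on 17, 26 and 40 counts in the mock libraries. All treated libraries lay above all mock libraries, with a log2 fold change of 1.23 ± 0.20 (SE) and an adjusted p of 0.00232 (edgeR quasi-likelihood test, Benjamini-Hochberg). Its neighbour AT5G04970, also a methylesterase, lies on the opposite strand with 12 bases between the genes and had a log2 fold change of -0.12.

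AT1G23205 encodes an inhibitor domain alone, in 206 codons, and was the only one of 21 such genes past both limits. Treated libraries had 7.67, 6.81 and 7.50 CPM, and mock libraries had 2.64, 3.54 and 3.35 CPM. The groups were far apart relative to their spread, with a log2 fold change of 1.19 ± 0.15 (SE) and an adjusted p of 0.000368 (edgeR quasi-likelihood test, Benjamini-Hochberg). A gene of the inhibitor domain and methylesterase genes were thus higher in the same samples. Whether the product of AT1G23205 inhibits a methylesterase was not tested.

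The polygalacturonase AT1G60590 had 13.9, 12.6 and 17.0 CPM in treated seedlings, against 7.02, 8.31 and 7.64 CPM in mock seedlings. Every treated library was above every mock library, the third treated one the most, and the log2 fold change was 0.92 ± 0.13 (SE), with an adjusted p of 0.000988 (edgeR quasi-likelihood test, Benjamini-Hochberg). AT5G14650, for which the deposited text gives AT1G60590 as the closest relative, had 12.4, 10.9 and 11.8 CPM against 7.57, 8.06 and 7.39 CPM in mock seedlings. Its groups did not overlap either, and it lay just past the fold limit, at 0.61 ± 0.11 (SE) on the log2 scale, with an adjusted p of 0.00383 (edgeR quasi-likelihood test, Benjamini-Hochberg). Without the first treated library its log2 fold change was 0.57 (adjusted p = 0.0242, same test), and without the third mock library 0.58 (adjusted p = 0.0348, same test), both under the fold limit. AT5G14650 also overlaps AT5G14660 on the opposite strand, which had a log2 fold change of 0.23, and whether the counting used the strand is not stated. None of the 5 risen genes shares a stretch of 50 exonic bases with another place in the genome.

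**Figure D1:**
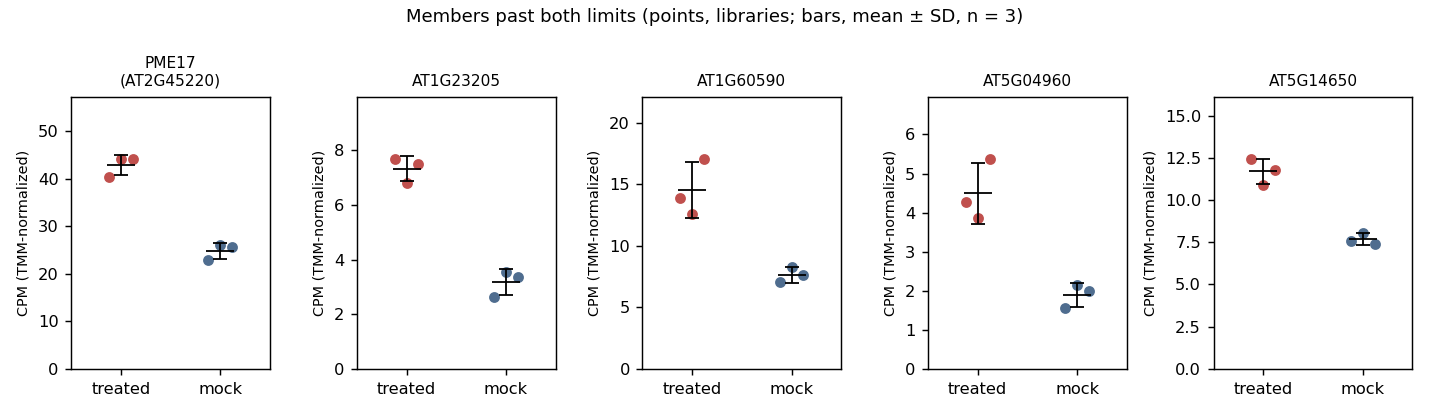
Level of the 5 members past both limits in each library, on a linear axis of TMM-normalized CPM that starts at 0, with treated seedlings left and mock seedlings right. Points are libraries and bars the mean ± SD (n = 3). In all 5 genes the treated points lie above the mock points, from PME17 at 42.9 CPM on average in treated seedlings to AT5G04960 at 4.49 CPM.

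Root hair markers and genes listed as markers of the rapid response to handling moved between the same groups of samples. Of 12 root hair markers in the table, 9 were higher in treated seedlings at both limits, as were 1.73% of all genes. The 12 summed to 48.6 to 55.0 CPM in treated against 23.2 to 28.2 CPM in mock libraries. Of 13 genes listed as handling markers, 10 were lower at both limits, as were 1.54% of all genes. In all 13 every treated library lay below every mock library, as in 13.8% of all genes. The 13 summed to 988.3 to 1109.4 CPM in treated against 1633.4 to 1838.9 CPM in mock libraries. The list holds touch and cold-shock genes such as TCH3 and CBF1. It also holds regulators such as WRKY33, WRKY40 and ERF6, which are not particular to handling. The part of the root hair and handling lists in the changes of the pectin genes was not tested. Root endodermis markers summed to 21.1 to 22.9 CPM in treated and 21.0 to 25.3 CPM in mock libraries, with 0 of 4 called in edgeR (0 also at an unadjusted p of 0.05). For leaf photosynthesis markers, 1 of 7 was higher at both limits, and the sums were 23549.8 to 37469.7 CPM in treated and 24410.5 to 33922.4 CPM in mock libraries. Of 5 listed pollen markers 3 were not in the table and 1, BUPS1, was not matched to a locus. The remaining one, ANX1, was not called. In such bulk samples, a larger share of cells of a type and more RNA per cell cannot be told apart.

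**Figure D2:**
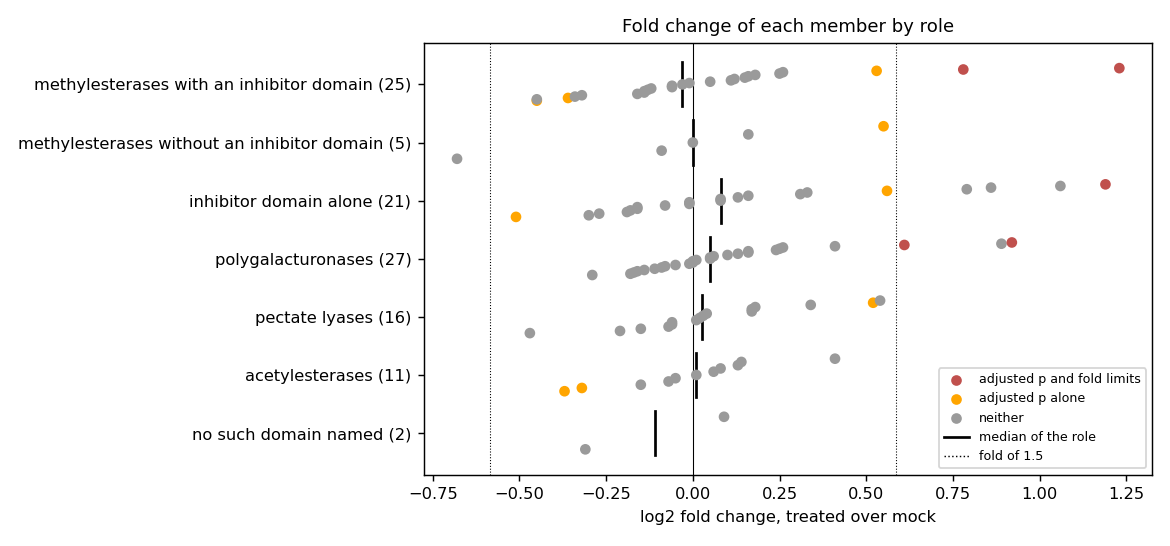
Log2 fold change (treated over mock) of each of the 107 members, by role, with the number of members in parentheses; each point is a gene and the vertical bars are medians. Red points passed the adjusted p and the fold limit, orange points the adjusted p alone, and dotted lines mark a fold of 1.5. Most points lie between the dotted lines and the medians of the 6 named roles lie from -0.028 to 0.075.

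A further 9 members passed the adjusted p below the fold limit, which makes 14 of 107 (13.1%), where 9.63% of all genes passed it. Those that rose by less than 1.5-fold were PME2, the inhibitor PMEI1 (AT4G12390), the methylesterase AT5G19730 and the pectate lyase AT5G63180. Those that fell were the acetylesterases PAE7 and PAE8, the methylesterases PME12 and AT3G10720, and the inhibitor AT1G62770. Of all 14, 8 stayed past the adjusted p in each alternative fit and with each library left out.

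Among methylesterases, PME12 had 46.9, 43.9 and 46.1 CPM in treated seedlings, against 53.1, 62.0 and 59.8 CPM in mock seedlings. The treated libraries were all lower (log2 fold change -0.36 ± 0.08 SE, adjusted p = 0.0112 in edgeR's quasi-likelihood test with Benjamini-Hochberg adjustment), though the adjusted p reached 0.0676 without the second or the third mock library. AT3G10720 had 41.9, 39.6 and 46.6 CPM in treated against 53.1, 66.6 and 55.2 CPM in mock seedlings. It was again lower in every treated library (-0.45 ± 0.10 SE, adjusted p = 0.0114, same edgeR test), with up to 0.054 without the first treated or the second mock library. PME2 was on the other side at a low level, with 6.21, 5.20 and 6.85 CPM in treated against 3.83, 4.44 and 4.40 CPM in mock seedlings (0.53 ± 0.15 SE, adjusted p = 0.0493, same edgeR test). PME2 no longer passed the adjusted p with DESeq2, with limma-voom and without each of 5 libraries in turn (highest adjusted p 0.154). Without the second treated library PME2 passed both limits. AT5G19730, a methylesterase without the inhibitor domain, had 13.9, 14.9 and 12.1 CPM against 9.94, 9.30 and 8.79 CPM in mock seedlings, with no overlap (0.55 ± 0.11 SE, adjusted p = 0.00943, same edgeR test, and 0.0676 without the third mock library).

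The remaining methylesterases include the most abundant member. PME3 had 334.3, 354.6 and 428.1 CPM in treated seedlings, against 337.5, 484.5 and 426.1 CPM in mock seedlings. Its groups overlapped widely, and its log2 fold change of -0.16 ± 0.13 (SE) did not pass (adjusted p = 0.503, edgeR quasi-likelihood test). Per kilobase of exons PME3 was also first among the members, at 160.3 CPM per kb in treated and 179.1 CPM per kb in mock seedlings. PMEPCRF (94.2, 93.5 and 102.5 CPM in treated, 76.0, 90.7 and 101.8 CPM in mock seedlings) and AT3G49220 (80.3, 79.0 and 96.0 CPM against 64.0, 89.9 and 71.0 CPM) overlapped between the groups too. PME44 varied little within the groups, with 81.1, 82.1 and 81.2 CPM in treated and 89.1, 90.8 and 89.3 CPM in mock seedlings, at a log2 fold change of -0.14 that did not pass (adjusted p = 0.197, edgeR quasi-likelihood test). Summed over the 25 methylesterases with an inhibitor domain, levels were 928.5, 941.5 and 1069.8 CPM in treated and 884.1, 1134.9 and 1048.7 CPM in mock libraries, with PME3 making up 39.4% of the sum. Neither the sum nor the median log2 fold change (-0.028) set the groups apart.

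Among the inhibitors the log2 fold changes ran from -0.51 to 1.19, with a median of 0.075. PMEI1 (AT4G12390), named here after a RefSeq synonym, had 20.2, 21.3 and 21.6 CPM in treated seedlings, against 12.9, 13.4 and 15.9 CPM in mock seedlings. It was higher in all treated libraries, at a log2 fold change of 0.56 ± 0.10 (SE) just under the fold limit (adjusted p = 0.00372, edgeR quasi-likelihood test, Benjamini-Hochberg). Without the first treated library or without the third mock library it passed the fold limit as well, at 0.59 and 0.68. AT1G62770 was lower in all treated libraries, with 6.08, 5.78 and 5.61 CPM against 8.84, 7.65 and 8.44 CPM in mock seedlings (-0.51 ± 0.12 SE, adjusted p = 0.0183, same edgeR test). Its adjusted p rose to as much as 0.0893 without the third treated, the first mock or the third mock library. Its neighbour on the same strand, the inhibitor AT1G62760, differed the other way without passing, with 2.40, 1.67 and 2.28 CPM in treated against 0.82, 1.48 and 1.20 CPM in mock seedlings (0.86 ± 0.26 SE, adjusted p = 0.0604, same edgeR test). Of the exonic 50-base stretches of AT1G62760, 9.78% also occur elsewhere in the genome, so its counts are less certain.

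The most abundant inhibitor was AT5G62350, with 116.5, 142.8 and 139.1 CPM in treated and 117.2, 130.6 and 129.9 CPM in mock seedlings. It made up 42.3% of the summed level of its role and overlapped between the groups. AT5G62360, next to it on the chromosome, had 31.8, 33.7 and 33.4 CPM in treated and 36.2, 33.2 and 35.1 CPM in mock seedlings. AT3G62820 had 21.4, 23.4 and 27.5 CPM against 28.7, 33.4 and 27.0 CPM in mock seedlings, where 1 treated library reached into the mock range (adjusted p = 0.119, edgeR quasi-likelihood test). Of the 21 inhibitors 6 had a mean under 2 CPM, among them PMEI6, known from seed coat mucilage. PMEI6 was chosen here after its values were seen, for its log2 fold change of 1.06, which rested on 24, 18 and 37 counts in the treated libraries and on 2, 15 and 11 counts in the mock libraries. It did not pass (adjusted p = 0.168, edgeR quasi-likelihood test), and 1 mock library lay above 2 treated ones.

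Pectate lyases, which cut demethylated pectin by elimination, held 1 gene past the adjusted p. AT5G63180 had 98.1, 113.9 and 92.3 CPM in treated seedlings, against 71.5, 73.6 and 66.6 CPM in mock seedlings. It was higher in every treated library and was among the 4 most abundant of its role (log2 fold change 0.52 ± 0.09 SE, adjusted p = 0.00235, edgeR quasi-likelihood test with Benjamini-Hochberg adjustment). AT4G24780, at 106.5, 120.0 and 119.3 CPM in treated and 125.1, 123.3 and 115.9 CPM in mock seedlings, overlapped. AT1G67750, the only member whose short description contains "pectate lyase", overlapped too. It had 21.3, 25.9 and 27.0 CPM in treated and 24.3, 26.9 and 21.2 CPM in mock seedlings (adjusted p = 0.878, same edgeR test). AT1G04680 did not overlap, with 107.2, 129.7 and 112.5 CPM in treated and 98.3, 104.4 and 107.1 CPM in mock seedlings, but its libraries nearly touched and it did not pass (adjusted p = 0.235, same edgeR test). PMR6, a pectate lyase-like gene known from powdery mildew resistance and named here after its values were seen, had 85.8, 72.4 and 85.2 CPM against 82.1, 98.2 and 101.0 CPM in mock seedlings (adjusted p = 0.199, same edgeR test). The role's sum was 618.8, 649.1 and 631.9 CPM in treated and 578.4, 627.5 and 604.7 CPM in mock libraries, which overlapped.

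Polygalacturonases hydrolyse the demethylated chain, and besides the 2 that rose none of the 27 passed the adjusted p. The most abundant, AT4G23820, had 89.9, 97.2 and 94.3 CPM in treated seedlings, against 107.1, 103.9 and 104.7 CPM in mock seedlings. All treated libraries were lower, by a small margin (log2 fold change -0.17 ± 0.06 SE, adjusted p = 0.142, edgeR quasi-likelihood test). AT3G16850, chosen after its values were seen as the steadiest of the abundant ones, had 80.1, 77.1 and 79.8 CPM in treated and 78.3, 80.1 and 78.9 CPM in mock seedlings. PGX1, known from cell expansion, and QRT2, known from the separation of pollen grains, had log2 fold changes of 0.10 and 0.16, with overlapping groups at 2.83 to 4.31 CPM. Summed over the role, levels were 464.6, 458.1 and 474.2 CPM in treated and 449.3, 470.1 and 470.6 CPM in mock libraries. The sums lay within the same range although 2 of the genes had risen.

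**Figure D3:**
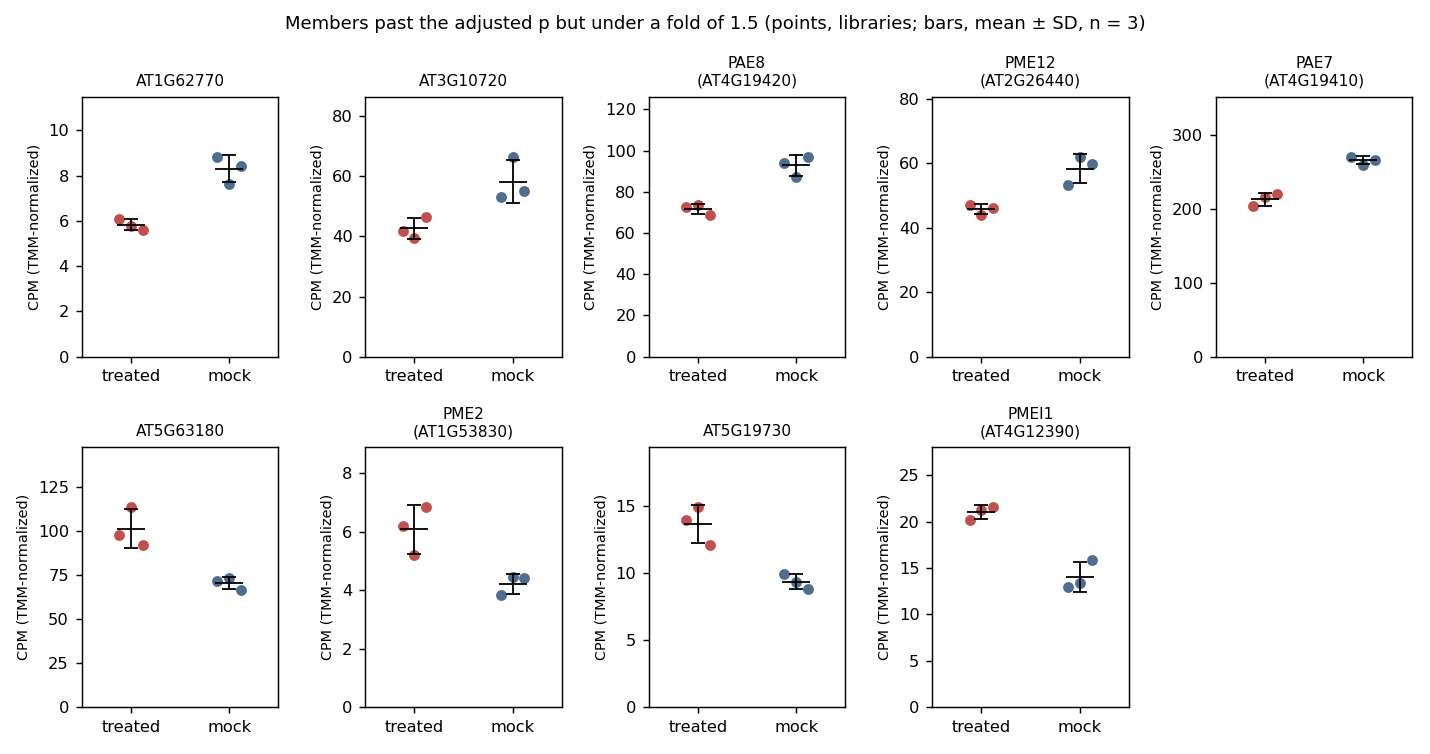
Level of the 9 members past the adjusted p but under a fold change of 1.5, on linear axes of TMM-normalized CPM that start at 0, with treated seedlings left and mock seedlings right; points are libraries and bars the mean ± SD (n = 3). In the upper row the 5 genes that fell are shown, PAE7 at 213.0 CPM on average in treated and 265.6 CPM in mock seedlings, and in the lower row the 4 that rose.

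Acetylesterases were the role whose summed level set the groups apart. Their sum was 538.1, 534.7 and 535.9 CPM in treated libraries, against 602.6, 590.0 and 615.7 CPM in mock libraries, a ratio of 0.89 (no test was run on sums). PAE7 alone made up 42.0% of the sum. On average the sum was 536.3 CPM in treated and 602.8 CPM in mock libraries, PAE7 213.0 against 265.6 CPM, and PAE8 71.7 against 92.8 CPM. The falls of PAE7 and PAE8 together were larger than that of the sum. Over the 11 genes of the role, 6 log2 fold changes were above 0 and 5 below. PAE7 had 203.4, 215.7 and 219.9 CPM in treated seedlings, against 270.6, 259.7 and 266.5 CPM in mock seedlings. Its treated libraries were all well below the mock libraries (log2 fold change -0.32 ± 0.07 SE, adjusted p = 0.0115, edgeR quasi-likelihood test, Benjamini-Hochberg). PAE8, known for removing acetyl groups from leaf pectin, lies 1304 bases from PAE7 on the same strand of chromosome 4. It had 72.8, 73.5 and 68.7 CPM in treated and 94.1, 87.4 and 97.1 CPM in mock seedlings, again without overlap (-0.37 ± 0.07 SE, adjusted p = 0.00496, same edgeR test). PAE7 no longer passed the adjusted p without the first treated or the third mock library (highest adjusted p 0.0618, same edgeR test), while PAE8 still did.

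The other 9 acetylesterases did not pass. AT3G05910, the second most abundant, had 102.8, 95.2 and 94.5 CPM in treated and 95.1, 94.3 and 100.7 CPM in mock seedlings. PAE11 was slightly above in each treated library, with 40.9, 38.5 and 41.6 CPM in treated and 35.5, 36.4 and 38.5 CPM in mock seedlings (adjusted p = 0.309, edgeR quasi-likelihood test). AT1G57590, at 3.04, 3.40 and 2.28 CPM in treated and 1.91, 2.30 and 2.25 CPM in mock seedlings, had the highest log2 fold change of the role, 0.41 ± 0.21 (SE), and overlapped. The role thus had small differences in both directions around a median log2 fold change of 0.011.

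**Figure D4:**
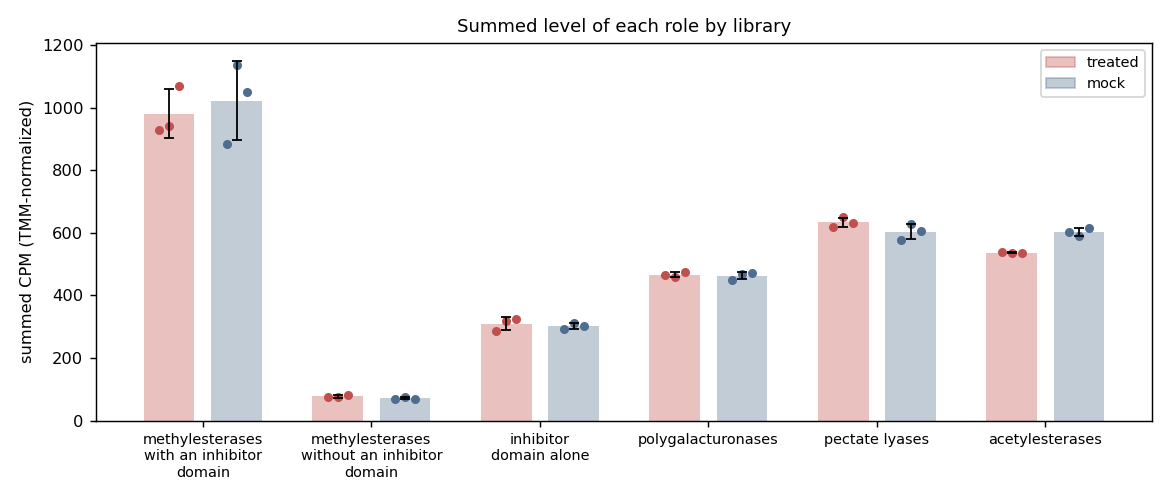
Summed level of each role in TMM-normalized CPM on a linear axis from 0, treated seedlings left and mock seedlings right of each pair; bars are means, points libraries and error bars the SD (n = 3). The groups overlap in every role shown except the acetylesterases, which averaged 536.3 ± 1.72 CPM in treated and 602.8 ± 12.9 CPM in mock seedlings. That fall lay in PAE7 and PAE8.

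Over all members the groups' libraries did not overlap in 28 genes (26.2%), 17 higher and 11 lower in treated seedlings, against 28.2% of all genes (14.5% higher and 13.8% lower), a share near the background. The sum over the 107 members was 3005.7 ± 106.7 CPM in treated and 3070.2 ± 172.1 CPM in mock seedlings (SD, n = 3). The first mock library had the lowest mock value in 61 members (57.0%), against 38.4% of all genes, and the second treated library the lowest treated value in 48 members (44.9%), against 37.3% of all genes. Without the first mock library the 5 risen members stayed called and AT5G19730 was added. The median coefficient of variation among the 52 members of at least 10 CPM was 6.50% in treated and 7.81% in mock seedlings, and among the 16 members under 2 CPM it was 17.6% in treated and 28.5% in mock seedlings, so a fold change of a low gene is less precise at this depth.

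The members lie on all 5 nuclear chromosomes (22, 10, 36, 16 and 23 genes on chromosomes 1 to 5), and 12 pairs lie within 10 kb of each other. In 9 of these pairs the 2 log2 fold changes had opposite signs, often with a value near 0, as in AT4G25250 (0.16) and AT4G25260 (-0.01). PME2 (0.53) and PME1 (-0.06) are 320 bases apart on the same strand, and PME1 did not pass (adjusted p = 0.704, edgeR quasi-likelihood test). In none of the 9 did both genes pass the adjusted p. The share of opposite signs among neighbours over all genes was not computed. PAE7 and PAE8, above, were the pair in which both members passed the adjusted p in the same direction.

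Other genes were listed, by symbol or short description, as ones that make pectin, bind it or act on the enzymes. The role of each of them in pectin was not tested. Listed symbols not matched to a single locus (CGR2, RRT1 to RRT4, RGXT4, SBT6.1 and SBT1.7) were left out, and whether they are in the table is not known. Of the 65 listed genes found in the table that are not members, WAK4 was higher and GATL10 was lower at both limits. Over all genes 1.73% were higher and 1.54% lower at these limits. WAK4, a wall-associated kinase of a family known to bind pectin, had 2.27, 2.31 and 2.13 CPM in treated seedlings, against 1.28, 1.15 and 0.949 CPM in mock seedlings. Its groups did not overlap (log2 fold change 1.02 ± 0.22 SE, adjusted p = 0.0135, edgeR quasi-likelihood test, Benjamini-Hochberg), but the call was lost without the third mock library (adjusted p = 0.0925, same test). GATL10, of the galacturonosyltransferase-like family, had 19.2, 18.5 and 19.5 CPM in treated against 41.4, 39.5 and 37.5 CPM in mock seedlings. This was a clear separation (-1.04 ± 0.08 SE, adjusted p = 1.17e-05, same edgeR test), larger than the fall of any member.

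In homogalacturonan synthesis 0 of 22 genes passed the adjusted p, where 9.63% of all genes did. At an unadjusted p under 0.05, 2 of the 22 were higher and 0 lower, against 2369 and 2202 of all 19615 genes. The 2 with the smallest p were GAUT7, the anchor of the galacturonosyltransferase complex (log2 fold change 0.21, adjusted p = 0.0684, edgeR quasi-likelihood test), and GAE2, an epimerase that makes its substrate (0.27, adjusted p = 0.16, same test). In rhamnogalacturonan synthesis 5 listed genes, RRT1 to RRT4 and RGXT4, were not matched to a locus. Of the 12 examined 0 passed both limits, but RHM1, which makes the sugar donor UDP-rhamnose, passed the adjusted p. RHM1 had 229.4, 202.1 and 225.9 CPM in treated against 147.4, 164.7 and 172.9 CPM in mock seedlings, with no overlap (0.44 ± 0.08 SE, adjusted p = 0.00541, same edgeR test). GALS3, a galactan synthase, passed it too (0.41 ± 0.09 SE, adjusted p = 0.0109, same edgeR test, and 0.0545 without the first treated library). All treated libraries were above all mock libraries in 7 of these 12 genes and below in 0, where over all genes 14.5% were above and 13.8% below.

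Among 8 receptors, WAK2 was lower at the adjusted p alone (log2 fold change -0.26, adjusted p = 0.0294, edgeR quasi-likelihood test). It no longer passed when any library other than the first mock one was left out, with adjusted p of 0.0561 to 0.127 in the same test. GATL6 had a log2 fold change of -0.21, RWA2 and RWA4, which are needed to acetylate wall polysaccharides, 0.14 and 0.16, and the polygalacturonase inhibitor PGIP2 -0.14, and none of them passed. A further 3 genes were listed with the polygalacturonases by the words of their short description alone, and whether they encode such enzymes was not tested. Among these 3, PGAZAT had 0.69 and PG2 0.12, and among 5 rhamnogalacturonate lyases AT1G09890 had 0.10 and AT4G24430 -0.12, again without passing.

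The 11 rows that match under the header of the short description alone hold genes whose summaries mention pectin, such as the nucleotide sugar enzymes MUM4 and UXS1 and the inhibitor PGIP2. None of them passed either limit in either direction (edgeR quasi-likelihood test, where an unadjusted p under 0.05 took 1 in each direction), and their log2 fold changes ran from -0.20 to 0.19. With the 17 rows of that header as members, 0 would be called.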

How the data were processed

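RNA was taken from whole seedlings, in 3 treated and 3 mock samples described as biological replicates. The authors trimmed the reads (Trimmomatic 0.36), aligned them to TAIR10 (HISAT2 2.1.0) and deposited gene counts made with HTSeq-count. The authors also deposited CPM, their counts scaled to each library's total, which served here only to check the counts. The authors' log2 fold changes, p-values and FDR, from their edgeR comparison, were deposited too and were not used. The labels name a strand-specific and another library kit, and whether the counting used the strand is not stated in them or in the methods.

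The deposited counts were fitted over the whole table in R 4.3.3 with edgeR 4.0.16 (filterByExpr, which left 19615 of 19616 genes, TMM factors of 0.9706 to 1.0182, quasi-likelihood test, no covariate, Benjamini-Hochberg). A gene was called past an adjusted p of 0.05 together with a fold change of 1.5. Levels are TMM-normalized CPM. Alternatives were other normalizations, filters, tests (DESeq2 1.42.0, limma 3.58.1), limits, a replicate block and each library left out. The script was tested on simulated data. Roles came from the domains in the deposited descriptions, and locations and exons from RefSeq, which matched all 107 members. Named genes are all members past both limits, in each class of the short descriptions the 4 with the smallest p and the 3 with the highest mean CPM, and in each list of other pathway genes the called ones and the 2 with the smallest p. Genes outside this rule, among them PGX1, QRT2, PMR6, PMEI6 and AT3G16850, were chosen after their values were seen, for a known function, a count, a value or a neighbour. Members and lists were chosen with earlier results of these data known. Python 3.11.15 with matplotlib 3.10.9, pandas 2.3.3 and numpy 2.4.6 drew the figures and wrote the tables.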

Additional observations from a re-analysis of the deposited data

How the results depend on the processing

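The 5 members that rose stayed called under DESeq2 size factors, library size alone, no filter, a CPM of at least 1 in 3 libraries, the DESeq2 Wald test, limma-voom and edgeR's likelihood ratio test, which called 7. Without a limit on the fold, 9 members were higher and 5 lower, 14 in all, as were 5 of the other pathway genes and 1888 of all genes. At a fold limit of 2, 2 members (AT5G04960 and AT1G23205) and 188 of all genes were called. With the rows of the header of the short description as members, a choice made after seeing the data, 0 were called. With each library left out in turn, 5 to 7 members were called higher, 0 lower each time, 5 to 7 in either direction, and 1 to 2 of the other pathway genes. All genes called ranged from 530 to 690 when a library was left out. With the replicate number as a block, 5 members were called and 547 of all genes, and the adjusted p of PME12 (0.0501), AT1G62770 (0.0522), PAE7 (0.0575), PME2 (0.0934) and WAK2 (0.106) was above 0.05 in that edgeR fit. The same-numbered libraries did not deviate together (correlations of -0.211, -0.302 and 0.170), so the numbers were not taken as pairs. No fold change of a named gene reversed where it was called. The cause of these changes beyond the moved limits was not tested. Low depth limits the 16 members under 2 CPM.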
